A study of Mus musculus with 6 samples.

Results

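The genes described here are 10 main components of the brain serotonin system: the receptors Htr1a, Htr1b, Htr2a, Htr2c, Htr3a, Htr4 and Htr7, the synthetic enzyme Tph2, the plasma membrane transporter Slc6a4 and the degrading enzyme Maoa. They were found in the count files by their Ensembl identifiers, through GENCODE M21, and make up 10 of the 60354 features listed. All 10 passed the filter on low counts, with between 50 and 1286 counts per mouse. Brains came from male C57BL/6NCrSlc mice that were 16 weeks old when feeding began. PLDP mice received a modified AIN-93M diet with 20% protease-treated porcine liver decomposition product (PLDP) for 16 weeks, and control mice a modified AIN-93M diet without it, with adjusted calories. All mice then went through the same series of behavioral tests, during which the PLDP diet was withheld, and RNA was taken afterwards. Of the 13 mice on each diet, 3 were sequenced: mice 2, 5 and 10 for control and mice 17, 22 and 26 for PLDP. A whole brain library mixes all regions, so that fewer cells of a type and less RNA per cell cannot be told apart in any of the values.

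Serotonin is made in a small population of neurons in the raphe nuclei of the brainstem, whose axons reach nearly the whole brain. Tryptophan hydroxylase 2 starts the synthesis, the transporter takes released serotonin back up, and monoamine oxidase A breaks it down. The receptors lie mostly on other neurons in many regions and act through G proteins, except that of Htr3a, which is an ion channel. The study asked how long-term PLDP ingestion changes gene expression in the brain after tests of memory, anxiety and depression-like behavior.

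Libraries held between 18797061 and 23938729 counts, with mitochondrial genes at 2.54% to 2.80% of them, and expression is given as CPM, counts scaled by library size and TMM factor, after TMM scaling. Of 5 general neuron markers, 4 were used here, and their summed level was 4110 to 4201 CPM in the control mice and 4038 to 4251 in the PLDP mice. The summed level of hindbrain and spinal cord markers did separate the diets, with 148.1 to 161.3 CPM in the control mice and 77.35 to 116.7 in the PLDP mice. Glra1 and Slc6a5 made up most of each sum, with control means of 86.95 and 45.17 CPM, so it mainly follows these genes. Of the 13 listed markers, 10 entered the fit and 9 fell at an unadjusted p below 0.05, none rising, beside 3.69% of all features lower. Singly, 6 of the 10 did not overlap between the diets, beside 6.90% of all features lower without overlap. After Benjamini-Hochberg adjustment 1 of them passed, Slc6a5, with an adjusted p of 0.0369 in edgeR's quasi-likelihood test. As the raphe nuclei lie in the brainstem, the marker values are given beside Tph2 and Slc6a4.

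Levels were compared between genes per kilobase of merged exons. Maoa had the highest level of the 10 genes, with 10.1 CPM per kb as the mean of the 6 mice, and was followed by Htr2c with 5.71. Next came a group of 6 genes in which each gene's range over the mice overlapped that of its neighbor, from Htr7 with 3.77 through Htr1b with 3.29, Htr2a with 3.17, Htr1a with 2.84 and Tph2 with 2.72 to Htr3a with 2.54 CPM per kb. Slc6a4 had 0.920 and Htr4 0.542 CPM per kb, and neither range overlapped the gene above it. The place of Htr2c depended on the length used, because its merged exons span 9.328 kb and its longest transcript 4.883 kb. With the longest transcript Htr2c had 10.9 CPM per kb and stood above Maoa, and Slc6a4 had 1.49.

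**Figure D1:**
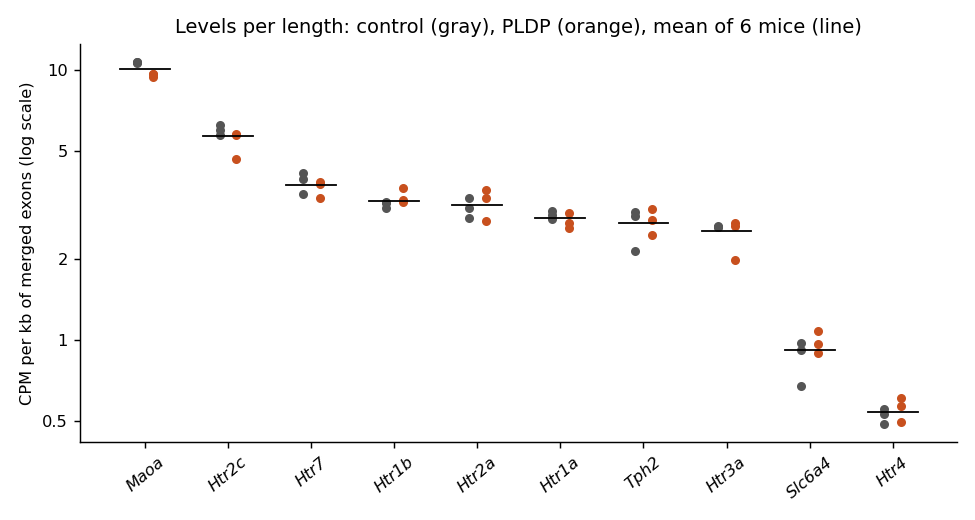
Level of each gene per kilobase of merged exons (log scale) in the 3 control mice (gray) and 3 PLDP mice (orange), with the mean of the 6 mice as a line. Maoa and Htr2c stood above the other genes, and Slc6a4 and Htr4 below them.

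Of the 10 genes, 1 differed between the diets at an unadjusted p under 0.05, the threshold used for every call here: Maoa was lower in the PLDP mice. Over all 18580 features tested, 8.60% passed that threshold in either direction and 3.69% were lower, so that 1 gene of 10 is near the background. After Benjamini-Hochberg adjustment over all features, edgeR's quasi-likelihood test called 0 of the 10 genes, beside 0.0323% of all features. DESeq2 and limma voom also called 0 after adjustment, and without it 1 (Maoa) and 2 (Maoa and Htr2c). The log2 fold changes of 5 genes were above zero and those of 5 below. Their median was -0.011, beside -0.0006 over all features, and the median absolute log2 fold change was 0.085, beside 0.074.

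**Figure D2:**
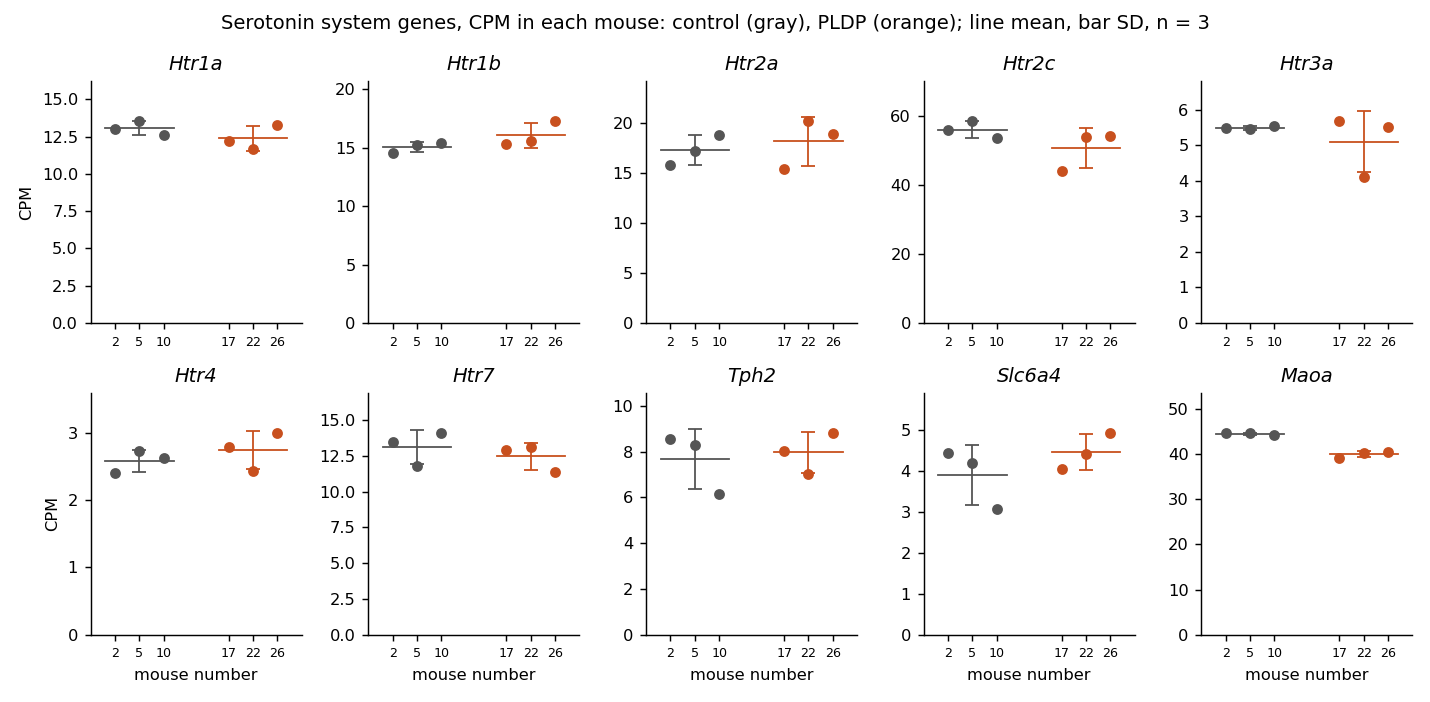
CPM of the 10 genes in each mouse, by mouse number, for control mice (gray) and PLDP mice (orange), with the mean (line) and SD (bar) of the 3 mice per diet on axes that start at 0. Maoa is the gene whose diets do not overlap, and Htr2c has a single low value of 43.8 CPM in PLDP mouse 17.

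Maoa encodes monoamine oxidase A, a mitochondrial outer membrane enzyme that oxidizes serotonin and noradrenaline (ENSMUSG00000025037, chromosome X of GRCm38 from 16619698 to 16687818). It had 44.55, 44.64 and 44.18 CPM in control mice 2, 5 and 10, and 39.15, 40.17 and 40.46 CPM in PLDP mice 17, 22 and 26. All 3 PLDP mice lay below all 3 control mice, which held for 6.90% of all features in this direction. The level fell by 10.2%, a log2 fold change of -0.16 (standard error 0.05, 95% interval -0.27 to -0.04). The unadjusted p was 0.00898 in edgeR's quasi-likelihood test, and the Benjamini-Hochberg adjusted p was 0.399. The fold change stayed between -0.17 and -0.14 when any 1 mouse was left out, with unadjusted p of 0.0163 to 0.0288 in that test. The control mice differed less among themselves than counting alone would give, with a coefficient of variation of 0.544% where counting error is 3.34%, so the narrow spread of those 3 values is not a measure of precision.

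Monoamine oxidase B, the related enzyme encoded by the neighboring gene Maob (chromosome X from 16709282 to 16817366, on the opposite strand), prefers other amines and is the form of serotonin neurons and astrocytes. Maob had 28.3, 30.2 and 27.8 CPM in the control mice and 30.3, 28.2 and 31.0 in the PLDP mice. These values overlapped, with a log2 fold change of 0.05 (95% interval -0.09 to 0.19). Within each library, the ratio of Maoa to Maob was 1.57, 1.48 and 1.59 in the control mice and 1.29, 1.42 and 1.31 in the PLDP mice. The ratio was lower in all 3 PLDP mice, with a log2 difference of -0.21, and the exact two-sided permutation test gave p = 0.1, the smallest that 3 mice against 3 allow.

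Astrocytes, named above for monoamine oxidase B, are among the cells that hold monoamine oxidases, so their markers are set beside Maoa and Maob. The 5 astrocyte markers summed to 1149 to 1213 CPM in the control mice and 1140 to 1169 in the PLDP mice, and of them only Aqp4 was called, with 177.6 ± 5.42 and 164.3 ± 7.80 CPM (SD, n = 3 each). No astrocyte marker was at 0 in all mice. Their part in the difference of Maoa was not tested.

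The 250 bases upstream of the annotated start are shown for Maoa, the called gene, and for the raphe genes Tph2 and Slc6a4, which the same neurons transcribe. The sequences are from RefSeq on GRCm38.p6, whose promoter table held 8 of the 10 genes. Capitals mark the GC box GGGCGG and the TATA box TATAAA, searched on both strands, which do not overlap each other here. Each is written 5′ to 3′ on the strand of its gene: Maoa at chrX:16619448-16619697 on the plus strand, Tph2 at chr10:115185023-115185272 on the minus strand and Slc6a4 at chr11:76998347-76998596 on the plus strand.
Maoa: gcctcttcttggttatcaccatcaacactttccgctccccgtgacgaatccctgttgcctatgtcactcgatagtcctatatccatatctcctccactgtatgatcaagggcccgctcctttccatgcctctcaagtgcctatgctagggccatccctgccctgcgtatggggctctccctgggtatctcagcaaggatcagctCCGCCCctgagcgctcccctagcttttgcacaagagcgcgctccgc
Tph2: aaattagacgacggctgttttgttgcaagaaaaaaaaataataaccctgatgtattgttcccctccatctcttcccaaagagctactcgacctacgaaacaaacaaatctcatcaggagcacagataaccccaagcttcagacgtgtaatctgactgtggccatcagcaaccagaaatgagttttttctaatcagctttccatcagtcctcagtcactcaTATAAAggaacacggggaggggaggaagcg
Slc6a4: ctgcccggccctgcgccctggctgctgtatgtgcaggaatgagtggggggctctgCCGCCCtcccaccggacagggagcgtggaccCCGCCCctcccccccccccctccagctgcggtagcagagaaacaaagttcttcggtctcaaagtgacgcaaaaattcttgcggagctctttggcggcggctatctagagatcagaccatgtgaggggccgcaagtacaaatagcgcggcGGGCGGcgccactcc
The Maoa window held 1 GC box and no TATA box, and the Slc6a4 window held 3 GC boxes and no TATA box. Tph2 had 1 TATA box and no GC box. Of 32851 such windows in the table, 32.7% held a GC box and 12.4% a TATA box. The core GGAA bound by ETS factors such as Fev, the transcription factor of serotonergic neurons, occurred in all 3 windows, as it did in 93.4% of all windows.

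Tph2 encodes the rate-limiting enzyme of serotonin synthesis in neurons (ENSMUSG00000006764, chromosome 10 from 115078641 to 115185022). It had 8.563, 8.302 and 6.159 CPM in control mice 2, 5 and 10, and 8.043, 7.044 and 8.819 CPM in PLDP mice 17, 22 and 26. The lowest value belonged to control mouse 10 and the diets overlapped. The log2 fold change was 0.05 (standard error 0.13, 95% interval -0.23 to 0.32, Benjamini-Hochberg adjusted p = 0.958 in edgeR's quasi-likelihood test).

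Slc6a4 encodes the serotonin transporter, the target of selective serotonin reuptake inhibitors (ENSMUSG00000020838, chromosome 11 from 76998603 to 77032340). It had 4.426, 4.174 and 3.055 CPM in the control mice and 4.045, 4.402 and 4.917 in the PLDP mice. Control mouse 10 was again the lowest and PLDP mouse 26 the highest of the 6, as for Tph2. The log2 fold change was 0.19 (standard error 0.16, 95% interval -0.15 to 0.53, adjusted p = 0.786 in the same edgeR test), and it was 0.05 without control mouse 10. As a percent change, the interval runs from -9.57% to 44.1%.

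Raphe neurons make both transcripts, so that their ratio within a library depends little on how much raphe tissue the library holds. The ratio of Slc6a4 to Tph2 was 0.517, 0.503 and 0.496 in the control mice. In control mouse 10, Slc6a4 stood at 78.65% and Tph2 at 80.3% of the control mean. In the PLDP mice it was 0.503, 0.625 and 0.558. The diets overlapped, and the exact two-sided permutation test gave p = 0.2 for a log2 difference of 0.15, where 0.1 is the smallest possible. The control ratios had an SD of 0.0106 on a mean of 0.505. That is less spread than counting error alone would give on average, at 10.6% of the level for Slc6a4 and 7.77% for Tph2. The closeness of these 3 values is therefore not read as a property of the mice. The log2 difference was 0.07 without PLDP mouse 22 and 0.22 without PLDP mouse 17.

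**Figure D3:**
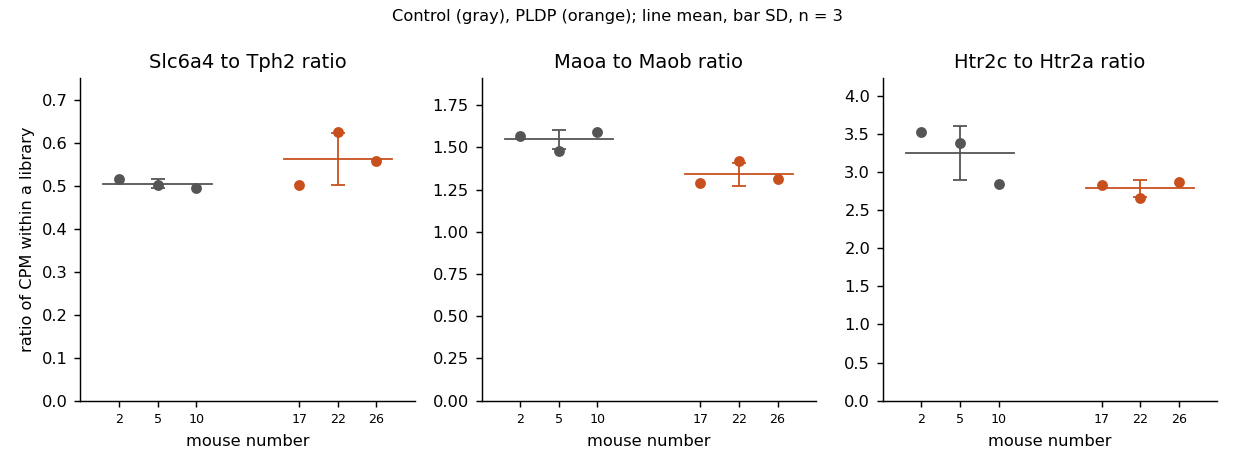
Ratios of CPM within each library, for Slc6a4 to Tph2, Maoa to Maob and Htr2c to Htr2a, by mouse number, with the mean (line) and SD (bar) of the 3 control mice (gray) and 3 PLDP mice (orange). The Maoa to Maob ratio is at least 1.48 in the control mice and at most 1.42 in the PLDP mice, and the others overlap.

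The hindbrain and spinal cord markers, mostly Hox genes, did not follow these raphe genes. That list holds no gene particular to the raphe nuclei, so it does not measure how much raphe tissue a library held. As the median over the 10 tested markers, they stood at 79.2%, 34.3% and 44.4% of the control mean in PLDP mice 17, 22 and 26, where Tph2 stood at 104.8%, 91.8% and 114.9% and Slc6a4 at 104.1%, 113.3% and 126.6%. Among the markers, Slc6a5, a glycine transporter gene of hindbrain and spinal cord neurons, had a log2 fold change of -0.66, Glra1 of -0.50 and Hoxb3 of -1.05. The part of these markers in the values of Tph2 and Slc6a4 was not tested. The 6 listed transcription factors of serotonergic identity were at low levels, and in a whole brain their reads need not come from serotonergic neurons. Fev, which keeps the serotonergic identity, had 0.385, 1.22 and 0.631 CPM in the control mice and 0.325, 0.545 and 0.641 in the PLDP mice, from only 7 to 27 counts, and its log2 fold change of -0.59 had a 95% interval from -1.48 to 0.31. Of the 6 factors listed, all were tested and 0 were called by edgeR at an unadjusted p under 0.05. Their signs were mixed, with log2 fold changes above zero for 2 and below zero for 4. Gata2 had 4.714, 4.809 and 4.704 CPM in the control mice and 5.068, 5.912 and 6.04 in the PLDP mice. These did not overlap, as held for 7.29% of all features in this direction. Its log2 fold change was 0.26 (95% interval -0.01 to 0.53), with an unadjusted p of 0.0607 in the edgeR test. Lmx1b, whose diets overlapped, was nearest to the threshold, with 1.972, 2.268 and 1.6 CPM against 1.767, 1.258 and 1.069, a log2 fold change of -0.51 and an unadjusted p of 0.0503 in edgeR's quasi-likelihood test, and limma voom gave 0.0491. The call on Lmx1b thus depended on the setting, and DESeq2 gave an unadjusted p of 0.115.

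Htr2c, the most abundant of the receptor transcripts, encodes a receptor coupled to Gq proteins that is found in many neurons and is very abundant in the choroid plexus epithelium (ENSMUSG00000041380, chromosome X from 146962513 to 147197277). It had 55.95, 58.34 and 53.54 CPM in the control mice and 43.84, 53.79 and 54.04 in the PLDP mice. PLDP mouse 17 stood apart below the other 5, while PLDP mice 22 and 26 lay within the control range. The log2 fold change was -0.15 (95% interval -0.30 to 0.00) with an unadjusted p of 0.0516 in edgeR's quasi-likelihood test, and the adjusted p was 0.583. Without PLDP mouse 17 the log2 fold change was -0.05 with an unadjusted p of 0.314. The gene passed 0.05 without control mouse 10, PLDP mouse 22 or PLDP mouse 26, at 0.0412, 0.0202 and 0.0200, and with no low-count filter (0.0112), library size only (0.0460) and limma voom (0.0468).

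Choroid plexus markers were low in the same mouse. The 9 markers summed to 765.3, 823.2 and 809.2 CPM in the control mice and 600.1, 765.2 and 705.3 in the PLDP mice, and in 8 of the 9 genes PLDP mouse 17 had the lowest value of the 6. As the median over the markers, that mouse stood at 71.3% of the control mean, and Htr2c at 78.4%. Without transthyretin (Ttr), which makes up most of the sum, the markers had 64.8 CPM in PLDP mouse 17 and 86.0 to 95.6 in the other 5 mice. All 9 markers were tested and had log2 fold changes below zero. Of them 2 were called lower, beside 3.69% of all features, Ttr with a log2 fold change of -0.22 and Folr1 with -0.31. None of the markers was at 0. Low sums in PLDP mouse 17 were not particular to the choroid plexus list. That mouse also had the lowest sum of the 6 for dopaminergic (29.06 CPM), thalamus (142.8) and hypothalamus markers (33.85). Without their top genes, Slc17a6 and Pmch, the thalamus and hypothalamus sums were not the lowest. For striatum (435.0) and for cortex and hippocampus (1246), its sum was the highest. The part of any of these markers in the values of Htr2c was not tested.

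**Figure D4:**
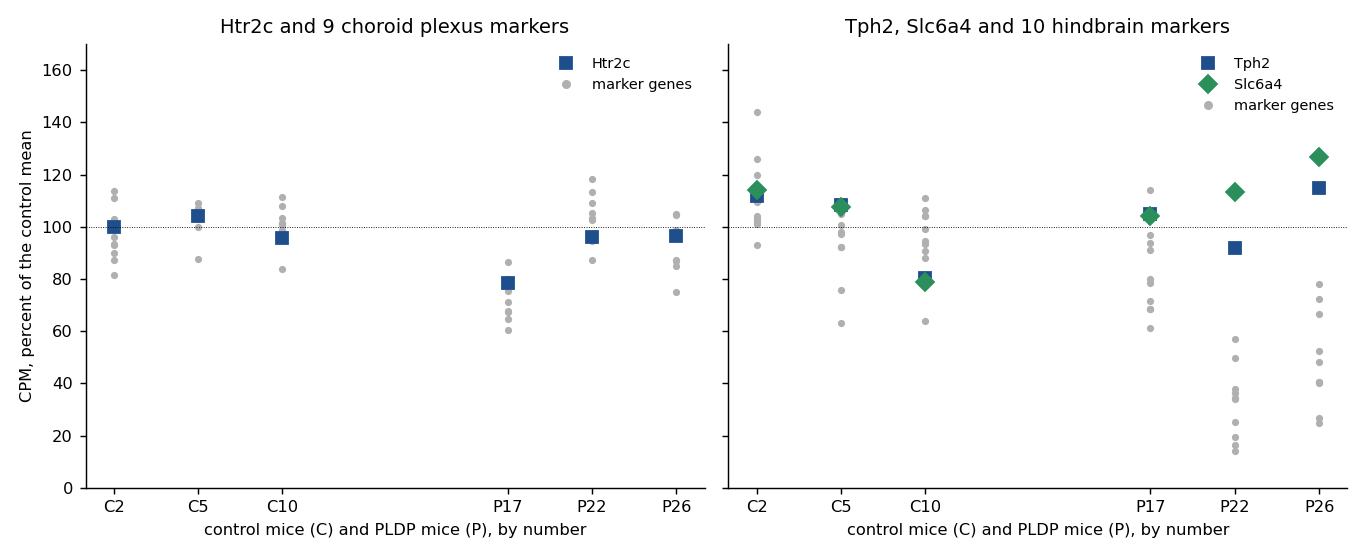
CPM in each mouse as percent of the control mean, for Htr2c with 9 choroid plexus markers (left) and for Tph2 and Slc6a4 with 10 hindbrain markers (right); gray points are single marker genes. Htr2c and 8 of the 9 choroid plexus markers have their lowest value in PLDP mouse 17, which also had the lowest sums of some other marker lists. The hindbrain markers are lowest in PLDP mice 22 and 26, where Tph2 stands at 91.8% and 114.9%.

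Htr2a encodes a cortical receptor that also acts through Gq proteins and is the main target of serotonergic hallucinogens (ENSMUSG00000034997, chromosome 14 from 74640840 to 74709494). It had 15.9, 17.3 and 18.9 CPM in the control mice and 15.5, 20.2 and 18.9 in the PLDP mice. The lowest and the highest value of the 6 both came from PLDP mice. The log2 fold change was 0.07 (95% interval -0.14 to 0.28, adjusted p = 0.892 in edgeR's quasi-likelihood test). It was 0.18 without PLDP mouse 17, with an unadjusted p of 0.0529, and -0.02 without PLDP mouse 22. The ratio of Htr2c to Htr2a was 3.52, 3.38 and 2.84 in the control mice and 2.83, 2.66 and 2.86 in the PLDP mice, which overlapped (exact two-sided permutation test, p = 0.2).

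Htr1a and Htr1b encode inhibitory receptors coupled to Gi proteins, which act as autoreceptors of serotonin neurons, on cell bodies and on axon terminals respectively, and also lie on many other neurons. Htr1a (ENSMUSG00000021721, chromosome 13 from 105443639 to 105448122) had 13.0, 13.5 and 12.6 CPM in the control mice and 12.2, 11.7 and 13.3 in the PLDP mice, with a log2 fold change of -0.08 (95% interval -0.27 to 0.11). Htr1b (ENSMUSG00000049511, chromosome 9 from 81628291 to 81633828) had 14.6, 15.2 and 15.4 CPM in the control mice and 15.3, 15.6 and 17.3 in the PLDP mice, with a log2 fold change of 0.09 (95% interval -0.08 to 0.26). The diets overlapped for both genes. The antisense gene D430036J16Rik overlaps exons of Htr1b and had 281 counts over the 6 mice, where Htr1b had 303 to 372 in each.

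Htr3a, Htr4 and Htr7 differ in how they signal. The subunit made from Htr3a forms a cation channel and marks a class of cortical interneurons, while the receptors of Htr4 and Htr7 raise cyclic AMP through Gs proteins. Htr3a (ENSMUSG00000032269, chromosome 9 from 48899213 to 48911099) had 5.48, 5.44 and 5.53 CPM in the control mice and 5.67, 4.11 and 5.51 in the PLDP mice, so that PLDP mouse 22 was the single low value. Its log2 fold change was -0.11 (95% interval -0.41 to 0.18), or 0.03 without that mouse. Markers listed for the interneurons that carry it (5 genes, 0 called by edgeR at an unadjusted p below 0.05) summed to 325.6 to 363.8 CPM in the control mice and 351.0 to 359.3 in the PLDP mice. Calb2 and Reln made up most of each sum, with control means of 157.1 and 139.2 CPM, so it mainly follows these genes. Log2 fold changes were above zero for 3 of the 5 and below for 2. Only Vip did not overlap between the diets, higher in the PLDP mice, which held for 7.29% of all features in this direction. Its unadjusted p was 0.167 in the edgeR test. As for Maoa, the Htr3a values of the control mice varied less than counting error, by 0.774% where counting alone gives 9.46%.

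Htr4 had the fewest counts, between 50 and 60 per mouse (ENSMUSG00000026322, chromosome 18 from 62324204 to 62496577). It had 2.41, 2.72 and 2.62 CPM in the control mice and 2.79, 2.43 and 2.99 in the PLDP mice, a log2 fold change of 0.08 (95% interval -0.29 to 0.44). Htr7 (ENSMUSG00000024798, chromosome 19 from 35958734 to 36057507) had 13.5, 11.8 and 14.1 CPM in the control mice and 12.9, 13.1 and 11.4 in the PLDP mice, a log2 fold change of -0.07 (95% interval -0.27 to 0.14). Both genes overlapped between the diets. As percent changes, the 95% intervals run from -18.1% to 35.8% for Htr4 and from -17.1% to 9.81% for Htr7.

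**Figure D5:**
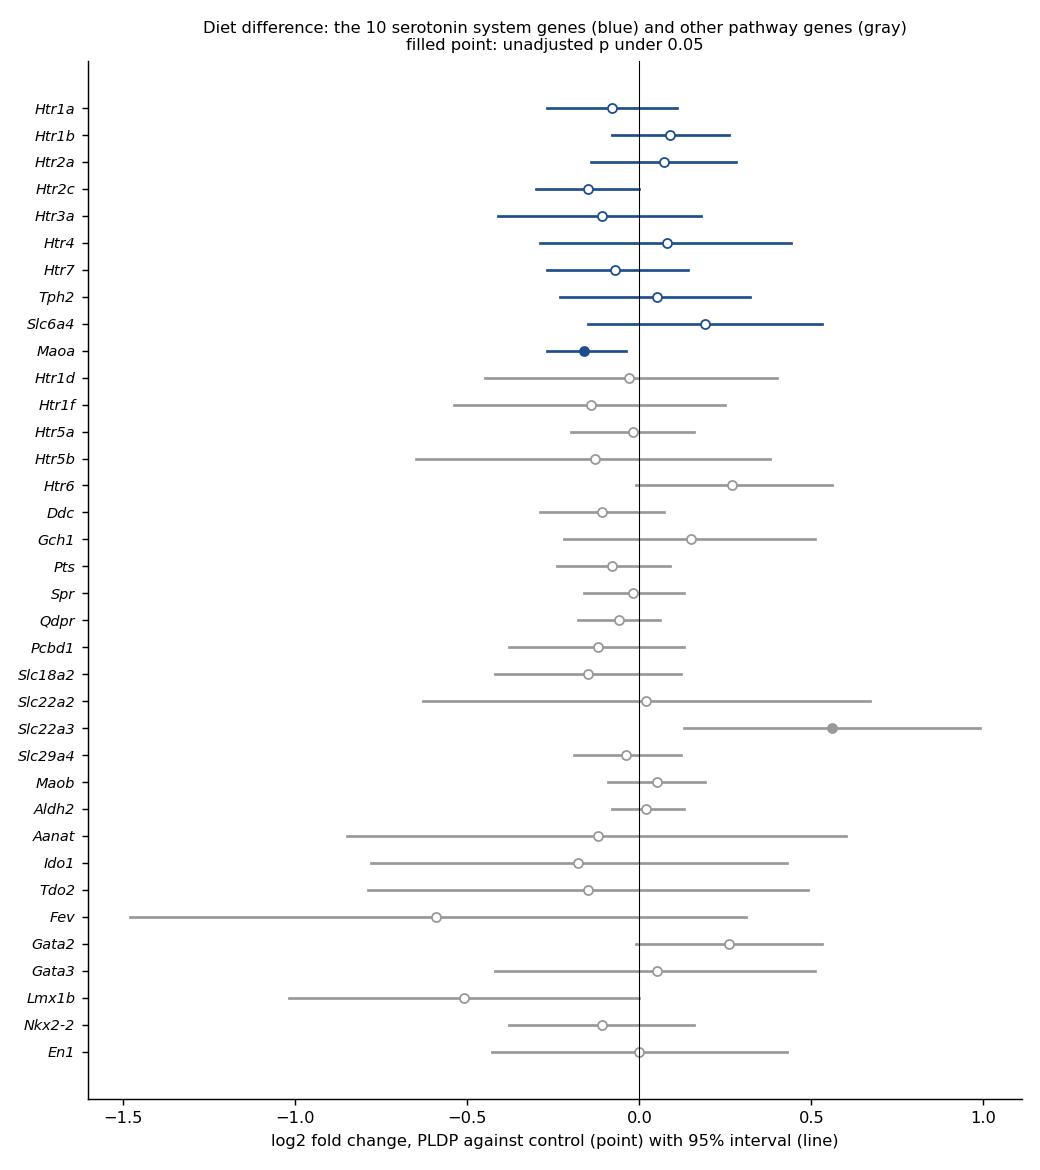
Log2 fold change of PLDP against control mice (point) with its 95% interval (line) for the 10 genes (blue) and the tested receptors, enzymes, transporters and transcription factors of the pathway list (gray), with receptor partners and effectors left out. Filled points have an unadjusted p under 0.05. Maoa lies at -0.16 with its interval below zero, Slc22a3 at 0.56 with its interval above zero, and the other intervals plotted reach zero.

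The raphe genes varied most between brains. The mean of the coefficients of variation within the diets was 14.2% for Tph2 and 14.3% for Slc6a4, 11% for Htr2a and 8.81% for Htr3a, and it was 1.13% for Maoa. The 500 features nearest in level to Tph2 had a median of 8.65%, with an upper quartile of 11.1%, and those nearest to Slc6a4 had 11.6% and 14.8%. For Maoa the lower quartile of such features was 3.36%. Tph2, Htr2a and Htr2c were thus above the upper quartile for their level and Slc6a4 just below it.

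Other genes of the pathway were taken from a written list of 50 genes, of which 44 were tested. Of these 44, 2 were called higher and 0 lower by edgeR at an unadjusted p under 0.05, beside 4.91% and 3.69% of all features, and 0 passed after adjustment. Among the 7 other receptors, 5 were tested and 0 were called. Htr6 had 4.38, 4.26 and 4.51 CPM in the control mice and 5.35, 4.70 and 5.93 in the PLDP mice. These did not overlap, as held for 7.29% of all features in this direction, and the unadjusted p of Htr6 in the edgeR test was 0.0592. Htr2b and Htr3b had at most 2 counts in any mouse, Tph1, the enzyme of gut and pineal gland, at most 9, and Asmt, the last enzyme of melatonin synthesis, at most 4.

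Aromatic amino acid decarboxylase (Ddc) and the vesicular transporter Slc18a2, which serotonin neurons share with dopamine neurons, overlapped between the diets, with log2 fold changes of -0.11 (95% interval -0.29 to 0.07) and -0.15 (95% interval -0.42 to 0.12). Of the 6 tested synthesis and cofactor genes and of the 5 tested genes of breakdown and tryptophan metabolism, 0 were called.

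Slc22a3, a low-affinity organic cation transporter that clears amines outside the synapse (chromosome 17 from 12418960 to 12507704), was called higher. It had 1.924, 1.815 and 1.6 CPM in the control mice and 3.25, 2.26 and 2.35 in the PLDP mice, from 33 to 70 counts per mouse. The diets did not overlap, as held for 7.29% of all features in this direction. The locus of Slc22a3 overlaps Plg and a clone-named gene. Its log2 fold change was 0.56 (95% interval 0.13 to 0.99) with an unadjusted p of 0.0144 in edgeR's quasi-likelihood test and an adjusted p of 0.448. Without PLDP mouse 17, the highest value, the log2 fold change was 0.37 with an unadjusted p of 0.108, and without control mouse 10 the p was 0.0530.

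Kcnj6 encodes a subunit of the potassium channel that inhibitory receptors such as that of Htr1a open through G proteins (chromosome 16 from 94748636 to 94997701). Its level was 55.1, 51.0 and 54.9 CPM in the control mice and 57.7, 63.9 and 65.1 in the PLDP mice. All 3 PLDP mice lay above all 3 control mice, which held for 7.29% of all features in this direction. The log2 fold change was 0.21 (95% interval 0.09 to 0.33) with an unadjusted p of 0.00161 and an adjusted p of 0.261 in the same edgeR test. Leaving out 1 mouse gave log2 fold changes of 0.18 to 0.27. The adjusted p was 0.0122 without PLDP mouse 17, where 182 features passed adjustment in place of 6, and 0.333 to 0.689 without any other mouse. Kcnj6 and Slc22a3 were the called genes of the list, and of the 19 receptor partners and effectors, 18 were tested and the other, Kcnj3, was listed at 0 in every mouse. Kcnj3 is known as a brain gene and a channel partner of Kcnj6, so that this 0 may come from the counting and is not read as absence of the transcript.

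The genes most like each other over the 6 mice were sought by the mean absolute difference of their centered log2 CPM, among 14502 named genes. Nearest to Maoa were Ttc9, Macrod2 and Acly, with differences of 0.012, 0.013 and 0.013, where the median gene differed by 0.1. Nearest to Htr2c were Slc6a11 with 0.013, Lhfpl3 with 0.017 and Lrrc75b with 0.02, where the median was 0.122. Tph2 and Slc6a4 had no neighbors as close, but their medians were also larger. Nlrp5-ps, Ggt1 and Stc1 lay at 0.044, 0.049 and 0.049 from Tph2, where the median was 0.172. Arhgap25, Casp8 and Rnf170-ps lay at 0.037, 0.048 and 0.052 from Slc6a4, where the median was 0.177. These are descriptions over 6 mice and carry no test.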

How the data were processed

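RNA-seq of brains from 3 control and 3 PLDP mice was used, 1 count file per mouse, grouped by the sample titles. The authors deposited whole-number read counts per gene without normalization, from stranded mRNA libraries. The submitters' processing notes name cutadapt 2.9, HISAT2 2.2.0, featureCounts and DESeq2 1.6.3, and the builds GRCm38 and GRCh38. The annotation and the use of strand in counting are not given in the sources used here, so overlapping genes are uncertain. Symbols, coordinates and lengths came from GENCODE M21 (GRCm38), in which 54777 of 55034 Ensembl identifiers were found, and 5320 numbered features kept their names. Library totals set the precision of each value.

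Counts were filtered with filterByExpr (minimum count 10, minimum total 15), scaled by TMM factors and fitted with the quasi-likelihood functions of edgeR 4.0.16 (glmQLFit, glmQLFTest; R 4.3.3), with diet as the only term. The script was tested on simulated data with known fold changes. These were larger than any fold change of the 10 genes, so that test does not bear on changes of their size. Intervals of fold changes are at 95%. Calls used an unadjusted p under 0.05, and adjusted values cover all features tested. Ratios used exact permutation tests in scipy 1.17.1. The labels do not say more than that the samples are separate mice. Alternatives were other filters, scalings, DESeq2 1.42.0, limma 3.58.1 voom, bias-adjusted dispersions and leaving out each mouse.

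The genes and lists were chosen with earlier results of these data known. By rule, the text describes all 10 genes, names Maob, Slc18a2, Ddc, Fev and called or barely counted genes of the pathway list, up to 3 called markers per list, and the 3 genes nearest in pattern to Tph2, Slc6a4, Maoa and Htr2c. Htr6, Lmx1b, Gata2, Calb2, Reln and Vip were named after their values were seen. Of the other marker lists, dopaminergic neurons, interneurons, striatum, cortex and hippocampus, thalamus, cerebellar granule cells, meninges and blood had 0 genes with an unadjusted p under 0.05 in edgeR. The hypothalamus list had 1, lower (Pmch), beside 3.69% of all features called lower. A further marker list is not reported here.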

Additional observations from a re-analysis of the deposited data

How the results depend on the processing

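Maoa kept an unadjusted p under 0.05 and a lower level in the PLDP mice in all 14 alternatives, with unadjusted p between 0.00797 and 0.0288 and adjusted p between 0.271 and 0.865. The number of the 10 genes called was 1, and it was 2 with no low-count filter, with library size only and with limma voom, and 1 to 2 when single mice were left out, the added gene being Htr2c each time. The pathway list had 2 called genes, 4 with no low-count filter and 2 to 6 without single mice (6 without PLDP mouse 17). It had 3 with at least 10 counts required in every mouse, relative log expression factors, limma voom or bias-adjusted dispersions, Lmx1b being added as lower each time. The number over all features was 1598, or 926 with DESeq2, 2360 with no low-count filter and 1133 to 2365 without single mice. Signs turned only in genes that were not called: leaving out 1 mouse gave log2 fold changes of -0.09 to 0.13 for Tph2, -0.02 to 0.18 for Htr2a and -0.21 to 0.03 for Htr3a. Levels per kilobase were 10.9 for Htr2c and 1.49 for Slc6a4 with the longest transcript. The differences of the 3 ratios kept their direction in every alternative, but that of Slc6a4 to Tph2 went from 0.15 to 0.07 without PLDP mouse 22. No paired analysis was possible because the mouse numbers of the diets differ. Counts under 100 in most or all mice limit the precision of Htr4, Slc6a4, Slc22a3, Lmx1b and Fev. Htr3a had 98 counts in PLDP mouse 22.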
